A study of Mus musculus with 19 samples.

Results

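The chromatin modifiers and remodellers are the enzymes, reader proteins and motors that chemically mark histones and DNA or move nucleosomes. They were chosen by name: every gene measured through a single symbol that begins with Kdm, Kmt, Hdac, Smarc, Chd, Dnmt, Kat or Brd and a family number or letter, or is one of the Sirt, Cbx and Ezh genes, with 1 demethylase left out. This gave 59 genes, read by 92 probes, out of 9834 genes named on the array. They fall into 11 families: Kdm with 6 members, Kmt with 5, Ezh with 2, Dnmt with 3, Kat with 6, Hdac with 9, Sirt with 4, Cbx with 4, Brd with 4, Smarc with 10 and Chd with 6.

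RNA came from FDCPmix cells, mouse haematopoietic progenitors kept as a line that depends on interleukin-3 and can be led into several blood lineages, and was measured on 19 two-colour arrays. One group of 4 arrays set treated cells, with no time given, against non-treated cells of the same line. The other 15 arrays set cells after tamoxifen, an oestrogen receptor ligand, against treated cells at 0 h. They cover 3 h, 7 h and 12 h (4 arrays each) and 23 h (3 arrays). The time since tamoxifen differs between both RNAs of these arrays. No array holds untreated cells labelled with these times, so tamoxifen and time in culture cannot be told apart. The comparison asks which genes move with treatment and with time after it. All cells are 1 line. The labels do not say that replicates came from separate cultures, so p-values measure the spread between arrays, which may be technical. The reference RNA counts as 1 control sample and its own spread is left out. Replicate 2 at 23 h was not analysed here. The titles read ES cell line, and the protocols speak of organs and pooled animals, neither of which matches these cells. Ratios give no levels, so the cell type could not be checked against marker levels, and in such bulk RNA fewer cells of a type and less RNA per cell cannot be told apart.

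Values are log ratios of the sample's own RNA to the reference, read as log2. Neither the log base nor the numerator is stated, so fold sizes and the direction, own RNA over reference, are assumed. The most extreme value of each array is positive where the own RNA carried Cy5 and negative where it carried Cy3. This holds on every array except 7 h replicate 4, as if the ratios had been turned by dye. The pattern cannot tell own RNA over reference from the reverse. With the reverse, every higher and lower value below would change places. The arrays 7 h replicate 4 and 23 h replicate 3, whose deposited median was 0.233, are in doubt. For several named members, values at 7 h or 23 h are also given without them. Without 7 h replicate 4, 14 of the 59 members changed sign at 7 h, and without 23 h replicate 3, 11 did at 23 h. Arrays of treated cells were the most variable, with an SD over probes of 0.619 to 0.642 against 0.235 to 0.36 in the time course. Among marker lists of other cell types, 8 of the 9 neutrophil granule genes were below 0 at each of the 4 times, and 7 of 9 in the treated cells. Their median log2 ratio was -0.14 at 3 h (array medians from -0.21 to -0.08), -0.14 at 7 h (-0.52 to 0.40), -0.37 at 12 h (-0.54 to -0.26) and -0.32 at 23 h (-0.92 to 0.88). It was -0.11 in the treated cells (-0.35 to 0.12), where 3 of the 9 were lower at an unadjusted p under 0.05, as were 2 of the 9 at 12 h. The 3 monocyte genes measured, of 5 listed, had a median of -0.33 in the treated cells (array medians from -0.805 to 0.2), with 1 of them above 0. Their median was -0.23 at 3 h (-0.294 to -0.097) and -0.16 at 7 h (-0.43 to 0.55). It was -0.35 at 12 h (-0.43 to -0.147) and -0.25 at 23 h (-0.67 to 0.41). Low values in the treated cells were not particular to these myeloid lists. The treated median was -0.24 for the fibroblast genes (1 of 4 above 0) and -0.14 for the erythroid genes (0 of 3 above 0). It was -0.026 for the lymphoid genes (0 of 3 above 0), 0.13 for the megakaryocyte genes and 0.045 for the progenitor genes. None of these genes passed the adjusted threshold, and their part in the values below was not tested.

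As background, Kmt and Ezh enzymes write methyl groups on histone lysines, Kdm enzymes erase them, and Dnmt enzymes methylate DNA. Kat enzymes acetylate lysines, and Hdac and Sirt enzymes remove acetyl groups. Cbx proteins bind methylated and Brd proteins bind acetylated lysines, and the Smarc and Chd ATPases slide or evict nucleosomes. In blood progenitors these proteins are known for holding lineage genes silent or open, with the Polycomb enzyme Ezh2 and the histone methyltransferase Kmt2a as much studied examples.

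Of the members with a promoter window, 41 of 48 had a window with at least 10 CpG, and the same count over all genes was not made. RefSeq promoter windows of 250 bases before the start (build GRCm38.p6) were matched for 48 of the 59 members, giving 68 windows. They were set beside 21263 windows of 17492 protein-coding genes, called all windows and all genes here. Windows on a single chromosome and windows without a full-length sequence were left out before matching, so not every protein-coding gene is covered. The median window held 17 CpG in the members and 10 in all genes. At least 10 CpG stood in 76.5% of the members' windows and in 50.1% of all windows, and the median GC content was 61.6% and 55.6%. The windows of Ezh2 (chr6:47595031-47595280, minus strand), Ezh1 (chr11:101226464-101226713, minus strand), Chd8 (chr14:52257761-52258010, minus strand) and Kat8 (chr7:127912267-127912516, plus strand, the first of 2 windows) are shown. Ezh2 had the highest fitted value of the members at 3, 7 and 12 h. Ezh1, Chd8 and Kat8 had an unadjusted p under 0.05 in limma's F test among the 4 times. So had Hdac11, which is not shown, and none of these genes passed the adjusted threshold. Each window is written 5′ to 3′ on the gene's strand, with CpG in capitals.
Ezh2: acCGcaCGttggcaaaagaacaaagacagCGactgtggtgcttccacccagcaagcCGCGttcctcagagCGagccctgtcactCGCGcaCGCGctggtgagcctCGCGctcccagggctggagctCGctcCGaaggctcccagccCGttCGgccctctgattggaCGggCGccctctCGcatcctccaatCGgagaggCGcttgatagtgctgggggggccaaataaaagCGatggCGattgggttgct
Ezh1: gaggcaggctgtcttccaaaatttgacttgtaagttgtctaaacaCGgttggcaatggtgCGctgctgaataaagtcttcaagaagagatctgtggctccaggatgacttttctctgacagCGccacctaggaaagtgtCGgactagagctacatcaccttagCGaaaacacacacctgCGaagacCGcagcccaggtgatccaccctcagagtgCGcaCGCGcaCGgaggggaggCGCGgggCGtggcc
Chd8: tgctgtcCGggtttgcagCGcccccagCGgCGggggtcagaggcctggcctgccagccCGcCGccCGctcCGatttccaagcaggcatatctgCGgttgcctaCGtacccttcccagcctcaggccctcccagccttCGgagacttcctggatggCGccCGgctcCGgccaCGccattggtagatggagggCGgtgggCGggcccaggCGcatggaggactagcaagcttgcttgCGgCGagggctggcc
Kat8: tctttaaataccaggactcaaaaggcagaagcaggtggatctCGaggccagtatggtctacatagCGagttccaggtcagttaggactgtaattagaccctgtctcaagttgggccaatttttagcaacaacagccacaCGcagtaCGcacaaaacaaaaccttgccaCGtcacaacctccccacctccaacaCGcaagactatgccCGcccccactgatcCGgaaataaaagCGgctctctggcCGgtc
The capitals number 23 CpG in Ezh2, 20 in Chd8, 14 in Ezh1 and 10 in Kat8. The second window of Kat8, which is not shown, held 5 CpG.

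Motifs were searched on both strands of the same windows. The oestrogen response element (GGTCA, any 3 bases, TGACC) was found in 0 of the 68 members' windows and in 0.047% of all windows. The NRF1 motif (GCGCA, any base, GCGC) stood in 5 of the members' windows (7.35%) and in 5.18% of all, and the members were Cbx5, Ezh1, Ezh2, Smarca4 and Smarca5. The ETS motif CCGGAAGT stood in 1 window, that of Sirt3 (1.47% against 3.79%). The E2F motif TTTCCCGC stood in the windows of Brd7, Kmt5c, Sirt4 and Smarcd1 (5.88% against 1.19%). These matches describe letters in short windows and no binding was measured.

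No member of the 59 passed the adjusted threshold (limma, Benjamini-Hochberg adjusted p under 0.05 over all features) in the treated cells or at any time. The share of all features that passed was 0.0186% at 12 h (3 of 16089) and 0% in the treated cells and at the other times. The smallest adjusted p of a member was 0.792 in the treated cells, 0.425 at 3 h, 0.707 at 7 h, 0.706 at 12 h and 0.9997 at 23 h. At an unadjusted limma p under 0.05, 2 members stood out in the treated cells, against 6.21% of all features. The count was 6 at 3 h, against 10.8% of all features, with 4 above 0 (5.72% of all features) and 2 below (5.05%), and 0 at 7 h, against 7.04%. It was 2 at 12 h, against 6.25%, and 0 at 23 h, against 3.35%. Over the 295 tests of members in these 5 comparisons, 10 (3.39%) were below that unadjusted limit, against 6.73% of all 80315 tests. The members' counts lay near or below the background of the array. These unadjusted counts are not steady: leaving out 1 array at a time gave 2 to 5 members in the treated cells, 4 to 6 at 3 h, 2 to 5 at 7 h, 1 to 3 at 12 h and 1 or 2 at 23 h. Without the doubtful 7 h replicate 4 there were 5 at 7 h, and without the doubtful 23 h replicate 3 there were 2 at 23 h. The shares of all features in the fits with an array left out are not given, so these counts have no background beside them.

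**Figure D1:**
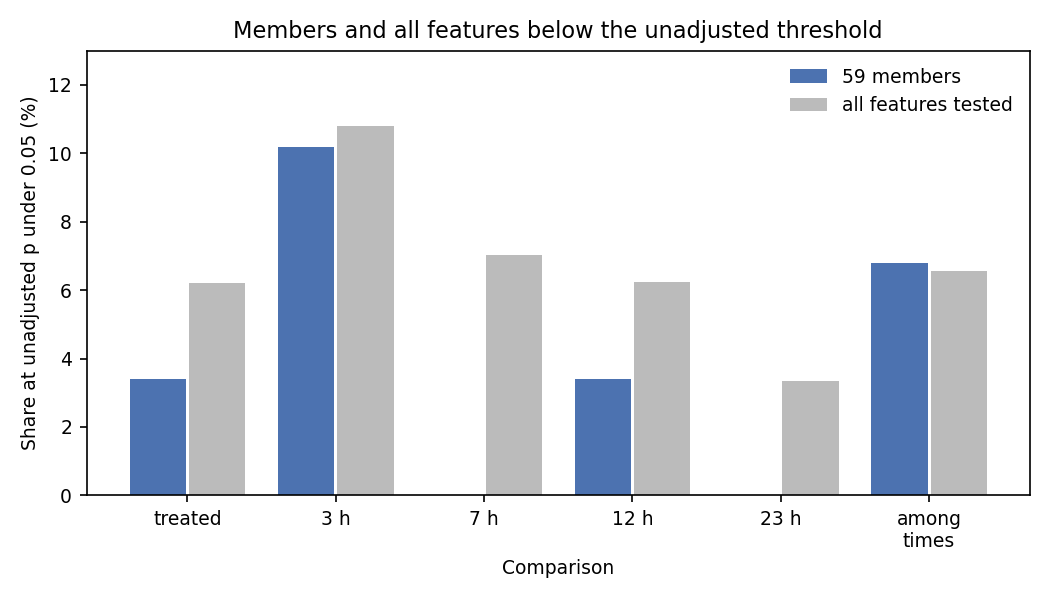
Bars give the percentage of the 59 chromatin members (blue) and of all features tested (grey) with an unadjusted limma p under 0.05, for the treated cells, the 4 times and the F test among times. The members' share was 10.2% at 3 h and 0% at 7 h and 23 h, and exceeded the grey bar only in the test among times, at 6.78% against 6.55%.

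The members as a list lay close to 0. Their median log2 ratio was 0.044 in the treated cells, -0.0098 at 3 h, 0.016 at 7 h, 0.028 at 12 h and 0.0048 at 23 h. The medians of all features were 0.009, 0, -0.0018, 0.0023 and 0.0013 in the same order. The median size of a member's log2 ratio, without its sign, was 0.135 in the treated cells and between 0.050 and 0.070 over the times, against 0.128 and 0.060 to 0.084 for all features. The 95% intervals show what the arrays could resolve. They lay wholly within a doubling or halving (log2 of 1) for 49 of 59 members in the treated cells, 57 at 3 h, 59 at 7 h, 58 at 12 h and another 58 at 23 h. They lay within 0.5 for 29 members in the treated cells and for 54 to 56 at the 4 times. The half-width of the median interval was 0.353 in the treated cells, 0.166 at each of 3 h, 7 h and 12 h and widest of the times, 0.193, at 23 h.

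**Figure D2:**
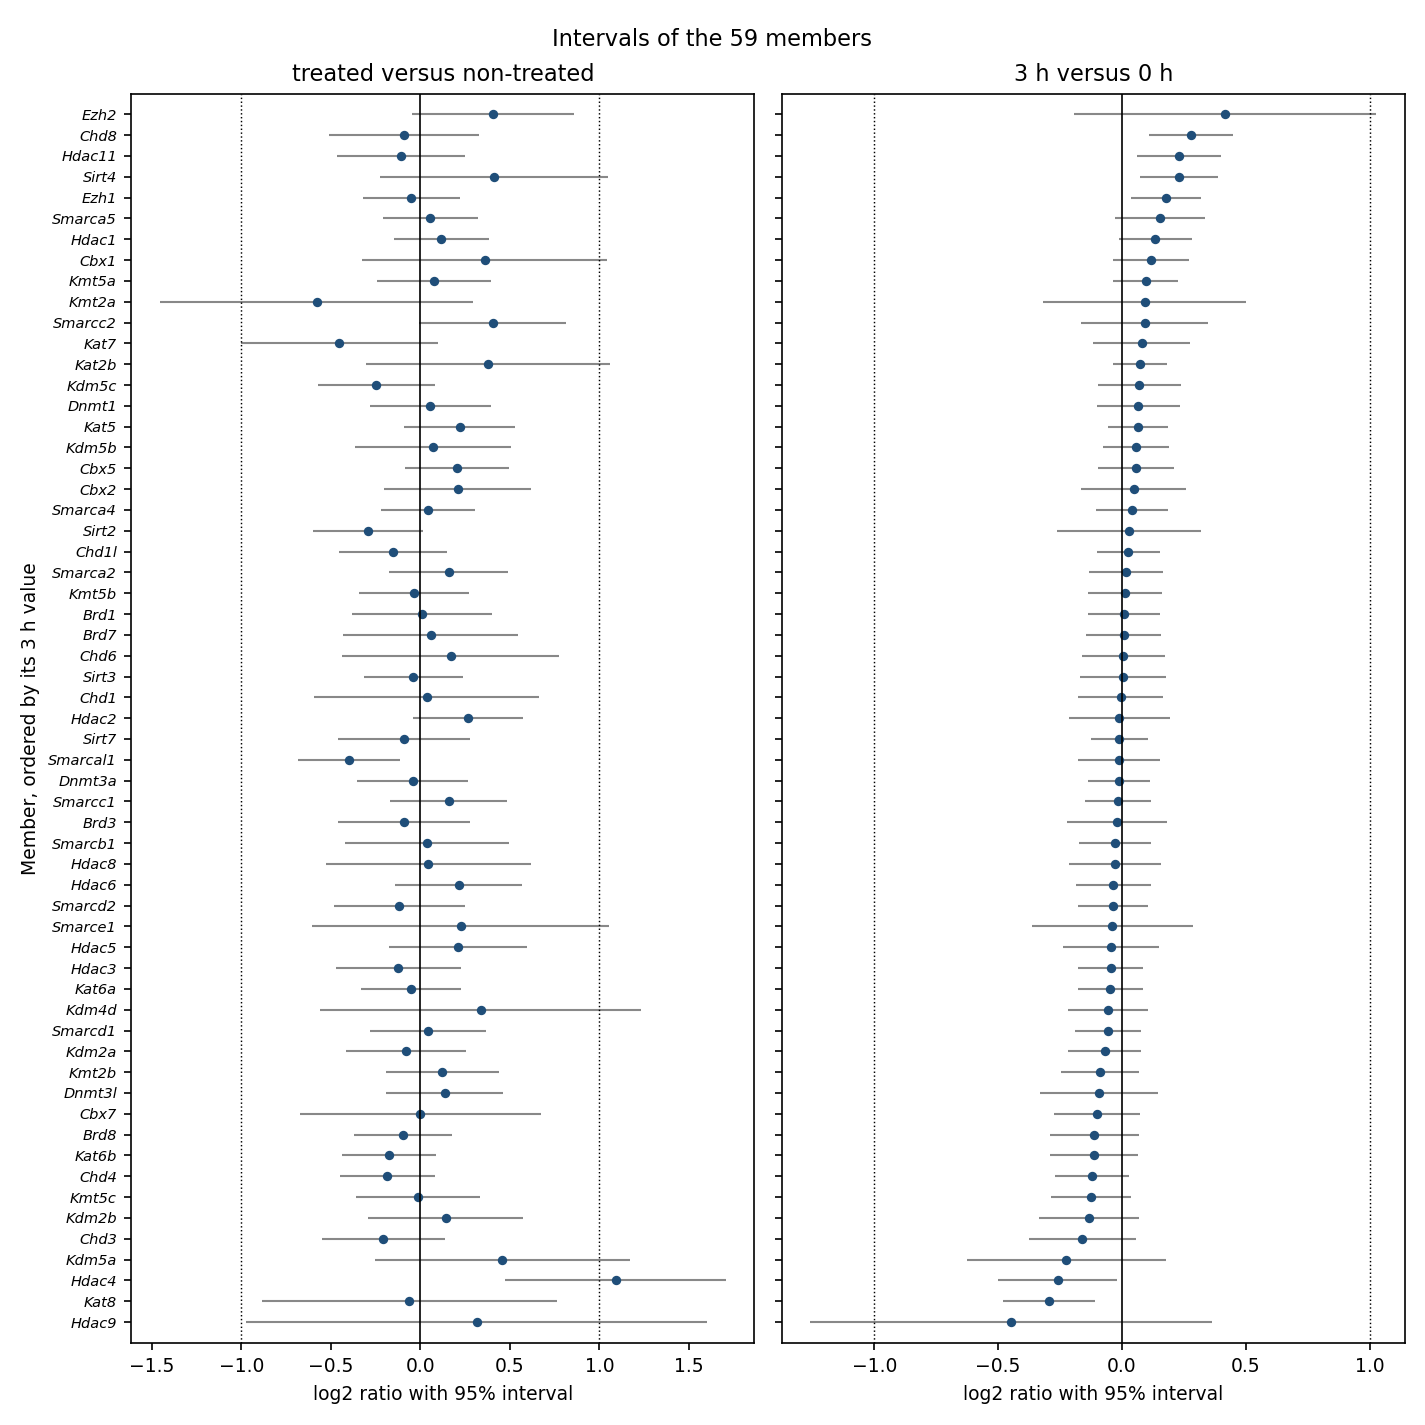
Each line is the 95% interval of the log2 ratio of 1 member, with a point at the fitted value, for the treated cells (left) and for 3 h (right). Dotted lines mark a log2 of 1 and -1. At 3 h 57 of 59 intervals lie between the dotted lines, and Ezh2 and Hdac9 reach past them. In the treated cells 49 do.

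Among the writers of histone methylation, Ezh2 had the highest values of the time course. Ezh2 and Ezh1 are the alternative catalytic subunits of Polycomb repressive complex 2, which methylates histone H3 at lysine 27. Ezh2, read by 1 probe, stood at 0.40, 0.49, 0.37 and 0.41 on the 4 arrays at 3 h, at 0.81, 0.74, 0.64 and -0.71 at 7 h, at 0.81, 0.41, 0.38 and 0.093 at 12 h and at -1.23, 0.15 and 0.83 on the 3 arrays at 23 h. It was above 0 on all 4 arrays at 3 h and at 12 h, and the arrays at 7 h and 23 h fell on both sides of 0. The fitted value was 0.42 (SE 0.282, n = 4 arrays) at 3 h, 0.37 (SE 0.282, n = 4 arrays) at 7 h, 0.42 (SE 0.282, n = 4 arrays) at 12 h and -0.078 (SE 0.33, n = 3 arrays) at 23 h. The limma adjusted p was 0.576, 0.825, 0.904 and 0.9997. All times share 1 estimate of the spread, which here includes 7 h replicate 4 and 23 h replicate 1, far below the other arrays of their groups. With each time in a fit of its own, chosen after the data were seen, the value at 3 h was again 0.42 with an SE of 0.0515 and an adjusted p of 0.397. Without the doubtful 7 h replicate 4 the 7 h value was 0.76 (limma adjusted p = 0.386). Without the doubtful 23 h replicate 3 the 23 h value was -0.20 (limma adjusted p = 0.981). With the sign of every Cy3 array turned, the values were 0.029 at 3 h, 0.40 at 7 h and 0.19 at 12 h, in the same direction, and -0.65 at 23 h (unadjusted p = 0.0296, limma adjusted p = 0.797). The 7 h value also depended on the other arrays, at 0.21 without replicate 1 and 0.24 without replicate 2.

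In the treated cells Ezh2 read 0.51, 0.48, -0.061 and 0.69 on replicates 1 to 4. It was above 0 on 3 of 4 arrays, with a fitted value of 0.41 (SE 0.163, n = 4 arrays, unadjusted p = 0.0675, limma adjusted p = 0.793). The treated value was 0.22 without replicate 4 and 0.092 with the Cy3 signs turned. Ezh1 stood at 0.19, 0.29, 0.083 and 0.15 at 3 h, above 0 on every array, at -0.20, -0.076, -0.038 and -0.10 at 7 h, below 0 on every array, and at -0.20, -0.11, 0.21 and -0.052 at 12 h. The fitted value at 3 h was 0.18 (SE 0.0649, n = 4 arrays, unadjusted p = 0.0173, limma adjusted p = 0.433), and 0.06 with the Cy3 signs turned. In the treated cells Ezh1 lay at -0.022, -0.032, -0.011 and -0.14, with 3 arrays within 0.032 of 0. The plot of values on every array sets both subunits beside 7 other members.

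**Figure D3:**
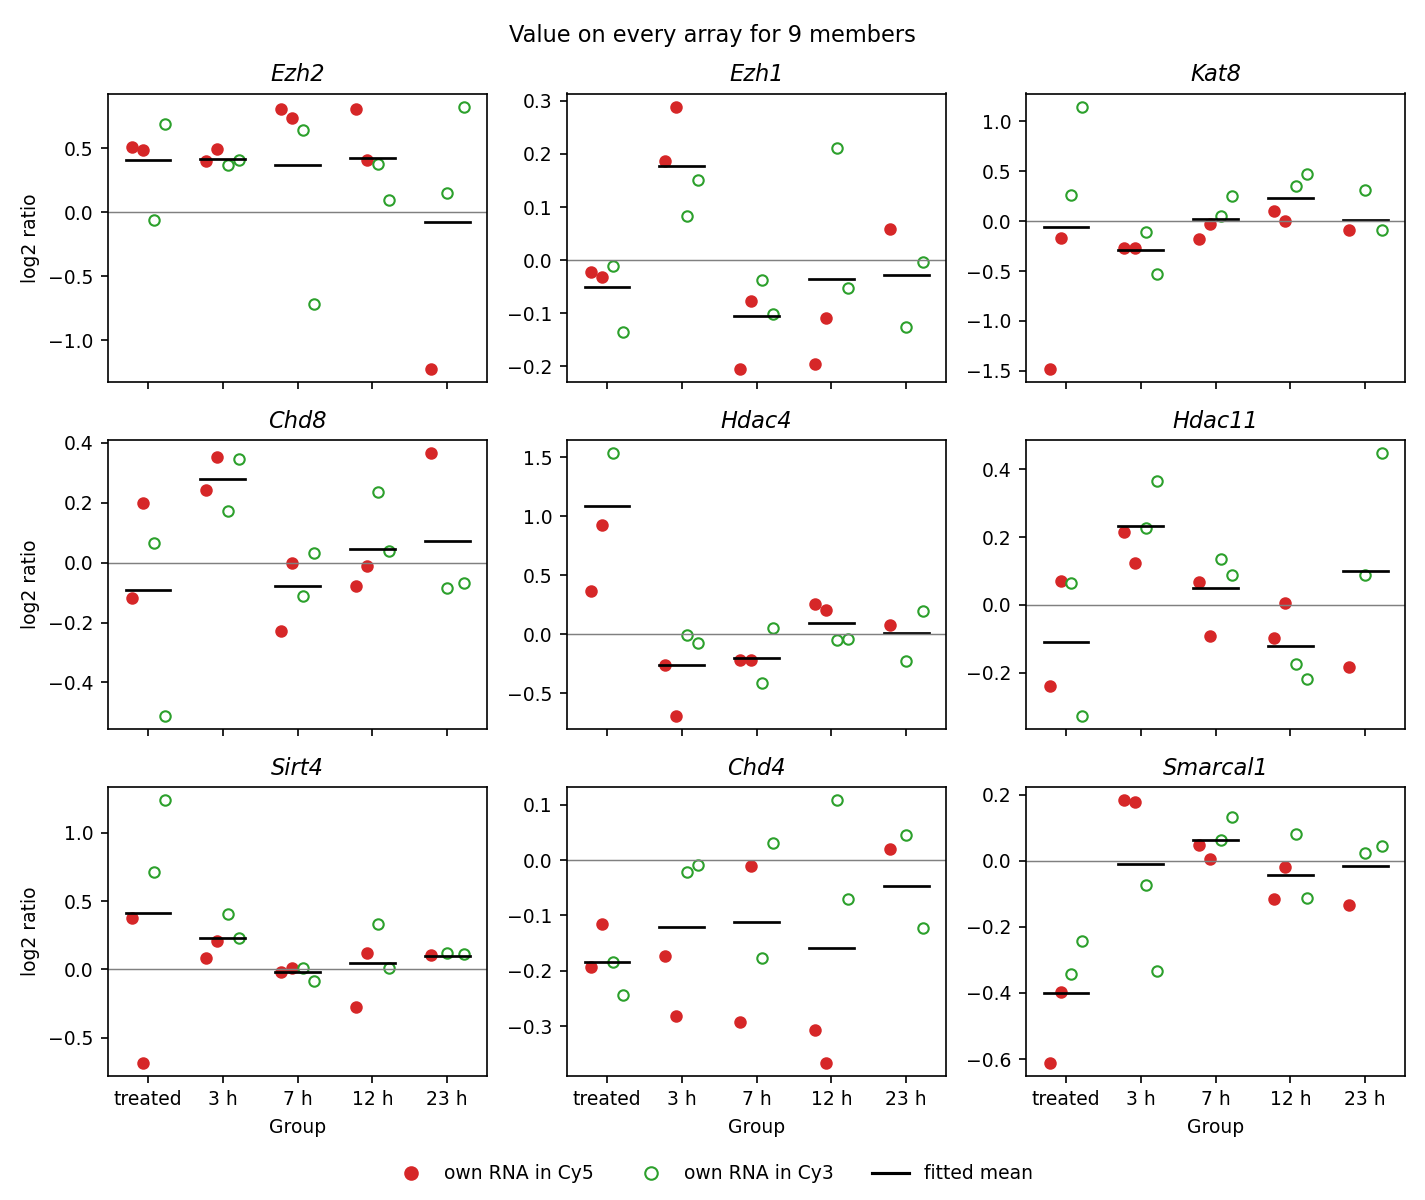
Log2 ratio of own RNA to reference on every array for 9 members in the treated cells and at 3, 7, 12 and 23 h, with a separate vertical scale for each gene. Filled red points have the own RNA in Cy5, open green points in Cy3, and black lines are fitted means. Ezh2 is above 0 on all 4 arrays at 3 h and 12 h, Kat8 is below 0 on all 4 arrays at 3 h and above 0 on all 4 at 12 h, and Smarcal1 is below 0 on all 4 treated arrays.

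Of the 5 Kmt members, none had an unadjusted p under 0.05 in any comparison. Kmt2a, the mixed lineage leukaemia methyltransferase of histone H3 lysine 4, was widely scattered. It read -0.87, -2.31, 0.88 and -0.025 on the treated arrays and 0.65, 0.62, -0.16 and -0.72 at 7 h, so that both arrays with the own RNA in Cy5 were low in the treated cells and high at 7 h. Its fitted values were -0.58 (SE 0.315, n = 4 arrays) in the treated cells and 0.098 (SE 0.189, n = 4 arrays) at 7 h, and both intervals include 0. Without the doubtful 7 h replicate 4 the 7 h value was 0.33 (limma adjusted p = 0.694). At 23 h Kmt2a read -0.70, -0.068 and -0.062, below 0 on all 3 arrays, and was fitted at -0.21 (SE 0.221, n = 3 arrays), or -0.38 without the doubtful 23 h replicate 3. Kmt5c, which adds methyl groups at histone H4 lysine 20, stood at -0.12 (SE 0.0744, n = 4 arrays) at 3 h. The values of Kmt2b, Kmt5a and Kmt5b at the 4 times lay between -0.090 and 0.096.

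The 3 DNA methyltransferase genes stayed near 0 in the main fits. Dnmt1, which copies methylation after replication, was fitted at 0.056 in the treated cells and at 0.066, 0.031, -0.015 and 0.079 at 3, 7, 12 and 23 h. Dnmt3a, which sets methylation anew, was fitted at -0.043 in the treated cells and at -0.013, 0.016, 0.069 and -0.093. Dnmt3l, its partner without catalytic activity, had its highest fitted value at 7 h, 0.14 (SE 0.11, n = 4 arrays), with arrays at 0.11, 0.24, -0.29 and 0.50. It was -0.042 without the doubtful replicate 4, so its sign rests on that array. The 15 fitted values of the family lay between -0.093 and 0.14, and every interval included 0. Without 7 h replicate 4, Dnmt1 at 7 h was 0.12 (limma adjusted p = 0.734). Without 23 h replicate 3, Dnmt3a at 23 h was -0.15 (limma adjusted p = 0.73).

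Among the acetyltransferases, Kat8 (also called MOF, which acetylates histone H4 at lysine 16) differed most between times. It stood at -0.27, -0.27, -0.11 and -0.53 on the arrays at 3 h and at 0.10, 0.004, 0.35 and 0.47 at 12 h. All 4 arrays at 3 h were therefore below 0, as held for 10.4% of all features. All 4 at 12 h were above 0, as held for 7.49%. The share of features with both was not counted. The fitted values were -0.29 (SE 0.0855, n = 4 arrays, unadjusted p = 0.00451, limma adjusted p = 0.425) at 3 h and 0.23 (SE 0.0855, n = 4 arrays, unadjusted p = 0.0182, limma adjusted p = 0.706) at 12 h. Without 3 h replicate 4 the 3 h value was -0.17 (unadjusted p = 0.0502, limma adjusted p = 0.489). At 7 h the arrays read -0.18, -0.026, 0.049 and 0.26, on both sides of 0. Kat8 had the smallest p of any member in limma's F test among the 4 times (F = 6.39, unadjusted p = 0.00693, adjusted p = 0.756). With the sign of every Cy3 array turned, its values became 0.024 at 3 h and -0.18 at 12 h, with F = 0.445, so its direction depends on the reading of the deposited signs. The treated arrays read -1.48, -0.17, 0.26 and 1.15, low with the own RNA in Cy5 and high with it in Cy3.

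Kat2b, also called PCAF, had 1 treated array far above the rest, with 0.17, -0.022, 0.046 and 1.31 on replicates 1 to 4. Its 4 probes disagreed there, with means of 1.25, -0.0088, 0.18 and 0.13. At 12 h it was above 0 on every array but small, at 0.10 (SE 0.05, n = 4 arrays). The other Kat members, Kat5, Kat6a, Kat6b and Kat7, had no unadjusted p under 0.05. The lowest of them was Kat7 in the treated cells, at -0.45 (SE 0.197, n = 4 arrays), with arrays at 0.18, -0.76, -0.49 and -0.74, of which 3 of 4 were below 0.

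Among the deacetylases, Hdac4 had the largest value of all members. Hdac4 is a class IIa deacetylase that shuttles between nucleus and cytoplasm. It read 0.37, 0.93 and 1.53 on treated replicates 1 to 3, all above 0, and replicate 4 had no value. The fit from these 3 arrays gave 1.09 (SE 0.193, n = 3 arrays, unadjusted p = 0.0112, limma adjusted p = 0.792), with a 95% interval of 0.47 to 1.71. With the sign of the Cy3 array turned, the value was -0.44, and without that array, replicate 3, it was 0.65 (unadjusted p = 0.0598, limma adjusted p = 0.823). At 3 h the same gene read -0.26, -0.69, -0.01 and -0.07, below 0 on every array, and was fitted at -0.26 (SE 0.111, n = 4 arrays, unadjusted p = 0.037, limma adjusted p = 0.456). Without 3 h replicate 2 that value was -0.11. It was below 0 on 3 of 4 arrays at 7 h, at -0.22, -0.22, -0.42 and 0.056, and was fitted at -0.20 (SE 0.111, n = 4 arrays), or -0.29 without the doubtful replicate 4 (unadjusted p = 0.0418, limma adjusted p = 0.543). The treated and the timed arrays have different references, so these values stand side by side only.

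The treated comparison depends on which arrays share an estimate of the spread. With all 19 arrays in 1 fit, Hdac4 was called higher at 0.97 (adjusted p = 0.00893) and Smarcal1 lower at -0.40 (adjusted p = 0.0152). That fit called 4.76% of all features, against 0% with the treated arrays on their own.

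Hdac11, the only class IV deacetylase, was above 0 on all 4 arrays at 3 h, with 0.21, 0.12, 0.23 and 0.37, and was fitted at 0.23 (SE 0.0784, n = 4 arrays, unadjusted p = 0.0111, limma adjusted p = 0.425). It read -0.098, 0.004, -0.17 and -0.22 at 12 h, below 0 on 3 of 4 arrays. With the Cy3 signs turned the 3 h value was -0.064. Hdac1, a class I deacetylase of the NuRD and Sin3 complexes, read 0.14, 0.41, 0.021 and -0.026 at 3 h and was fitted at 0.14 (SE 0.0677, n = 4 arrays). At 12 h it was fitted at -0.12 (SE 0.0677, n = 4 arrays), with 3 of 4 arrays below 0. Hdac9, chosen here for its scatter after its values were seen, had single arrays as far out as -2.40 at 3 h and 2.15 in the treated cells, and its SE at 3 h was 0.375. Over the whole family, 7 of 9 Hdac values were above 0 in the treated cells and 7 of 9 were below 0 at 3 h, with medians of 0.21 and -0.034. Of all 59 members, 34 were above 0 in the treated cells and 31 below 0 at 3 h. The Hdac median on single arrays fell on both sides of 0. It ran from -0.0235 to 0.37 in the treated cells and from -0.049 to 0.021 at 3 h.

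Among the sirtuins, Sirt4, a mitochondrial member, was above 0 on all 4 arrays at 3 h, with 0.08, 0.21, 0.41 and 0.23. Its fitted value was 0.23 (SE 0.0737, n = 4 arrays, unadjusted p = 0.00808, limma adjusted p = 0.425). At 7 h it lay within 0.09 of 0 on each array, and at 23 h the 3 arrays read 0.10, 0.12 and 0.11. On the treated arrays it spread from -0.68 to 1.24. With the Cy3 signs turned the 3 h value was -0.086. Sirt2, a mainly cytoplasmic deacetylase, read -1.001, -0.77, 0.41 and 0.19 in the treated cells, below 0 with the own RNA in Cy5 and above 0 with it in Cy3. It was fitted there at -0.29 (SE 0.11, n = 4 arrays). All 4 Sirt values were below 0 at 7 h and all 4 were above 0 at 23 h, and the largest in size were -0.15 (Sirt2) and 0.094 (Sirt4). Neither holds without the doubtful arrays: at 7 h Sirt2 was then at 0.068 and Sirt4 at 0.022, and at 23 h Sirt7 was at -0.015.

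The 6 histone demethylases had no unadjusted p under 0.05. Kdm5c, which removes methyl groups from histone H3 lysine 4, was below 0 on all 4 treated arrays, at -0.23, -0.26, -0.45 and -0.049, and was fitted at -0.25 (SE 0.118, n = 4 arrays). Over all features, 7.23% were below 0 on every treated array, and 6 of the 59 members were: Chd3, Chd4, Ezh1, Kat6b, Kdm5c and Smarcal1. At 7 h Kdm5c was fitted at -0.14 (SE 0.0771, n = 4 arrays), below 0 on 3 of 4 arrays, and at -0.16 without the doubtful replicate 4. Kdm5a, its paralogue, varied more, with 0.78, 0.34, 0.99 and -0.28 on the treated arrays and -0.13, 0.14, 0.22 and -1.13 at 3 h. The fitted values of Kdm5a were 0.46 (SE 0.256, n = 4 arrays) and -0.22 (SE 0.185, n = 4 arrays), and both intervals include 0.

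The Cbx and Brd readers of histone marks had no unadjusted p under 0.05. Cbx5, or HP1 alpha, which binds methylated lysine 9 of histone H3, read 0.32, 0.38, 0.18 and -0.066 in the treated cells and 0.29, -0.013 and 0.17 at 23 h. It was fitted at 0.21 (SE 0.105, n = 4 arrays) and 0.18 (SE 0.0835, n = 3 arrays). Without the doubtful 23 h replicate 3 the 23 h value was 0.23 (unadjusted p = 0.0419, limma adjusted p = 0.645). Cbx7, a Polycomb reader, was below 0 on all 4 arrays at 7 h, with -0.32, -0.13, -0.17 and -0.014, and was fitted at -0.16 (SE 0.0796, n = 4 arrays), or -0.18 without the doubtful replicate 4. At 23 h it was fitted at 0.15 (SE 0.093, n = 3 arrays), a value led by replicate 3, the doubtful array, at 0.45, and it was 0.048 without it. The bromodomain proteins Brd3 and Brd8 gave the smallest p of the Brd family. Brd8 was fitted at -0.11 (SE 0.0833, n = 4 arrays) at 3 h, with all 4 arrays below 0, and Brd3 at -0.11 (SE 0.0936, n = 4 arrays) at 7 h, or -0.06 without the doubtful replicate 4. All 4 Brd values were above 0 at 12 h, between 0.013 and 0.053, but the Brd median on single arrays ran from -0.042 to 0.0905.

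Among the ATP-dependent remodellers, Chd8, a chromodomain helicase known to bind beta-catenin, had the smallest unadjusted p of any member. It read 0.24, 0.35, 0.17 and 0.35 on the arrays at 3 h, above 0 on every one, and was fitted at 0.28 (SE 0.079, n = 4 arrays, unadjusted p = 0.00377, limma adjusted p = 0.425). At 7 h it read -0.23, 0, -0.11 and 0.033. At 12 h and 23 h its arrays lay on both sides of 0. With the Cy3 signs turned the 3 h value was 0.02.

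Chd4, the ATPase of the NuRD complex, was below 0 on every treated array and on every array at 3 h. It read -0.19, -0.12, -0.18 and -0.24 on the treated arrays, with the smallest SD over the treated arrays of any member (0.053), and -0.17, -0.28, -0.021 and -0.009 at 3 h. The fitted values were -0.18 (SE 0.0957, n = 4 arrays) and -0.12 (SE 0.0697, n = 4 arrays). At 12 h it was fitted at -0.16 (SE 0.0697, n = 4 arrays, unadjusted p = 0.0402, limma adjusted p = 0.784), but the arrays read -0.31, -0.37, 0.11 and -0.071. The low values at 12 h are those with the own RNA in Cy5, and the mean of both Cy3 arrays was 0.018.

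Smarcal1, an annealing helicase that restarts stalled replication forks, read -0.61, -0.40, -0.34 and -0.24 on the treated arrays, below 0 on every one. It was fitted at -0.40 (SE 0.103, n = 4 arrays, unadjusted p = 0.018, limma adjusted p = 0.792), with a 95% interval of -0.69 to -0.11. With the Cy3 signs turned the value was -0.11 (unadjusted p = 0.364, limma adjusted p = 0.78). At the 4 times it was fitted between -0.042 and 0.062, and only at 7 h did its 4 arrays fall on 1 side of 0. Smarcc2, a core subunit of the SWI/SNF complex, was above 0 on all 4 treated arrays, at 0.073, 0.57, 0.28 and 0.69, and was fitted at 0.40 (SE 0.148, n = 4 arrays). Its 3 probes differed, with treated means of 1.38, -0.044 and 0.20, and the first of them sets the mean. Smarca4, the ATPase also called Brg1, was fitted at 0.045, 0.04, 0.056, 0.14 and 0.00478 in the treated cells and at 3, 7, 12 and 23 h. At 12 h it read 0.27, 0.40, -0.021 and -0.10, high with the own RNA in Cy5 and low with it in Cy3.

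**Figure D4:**
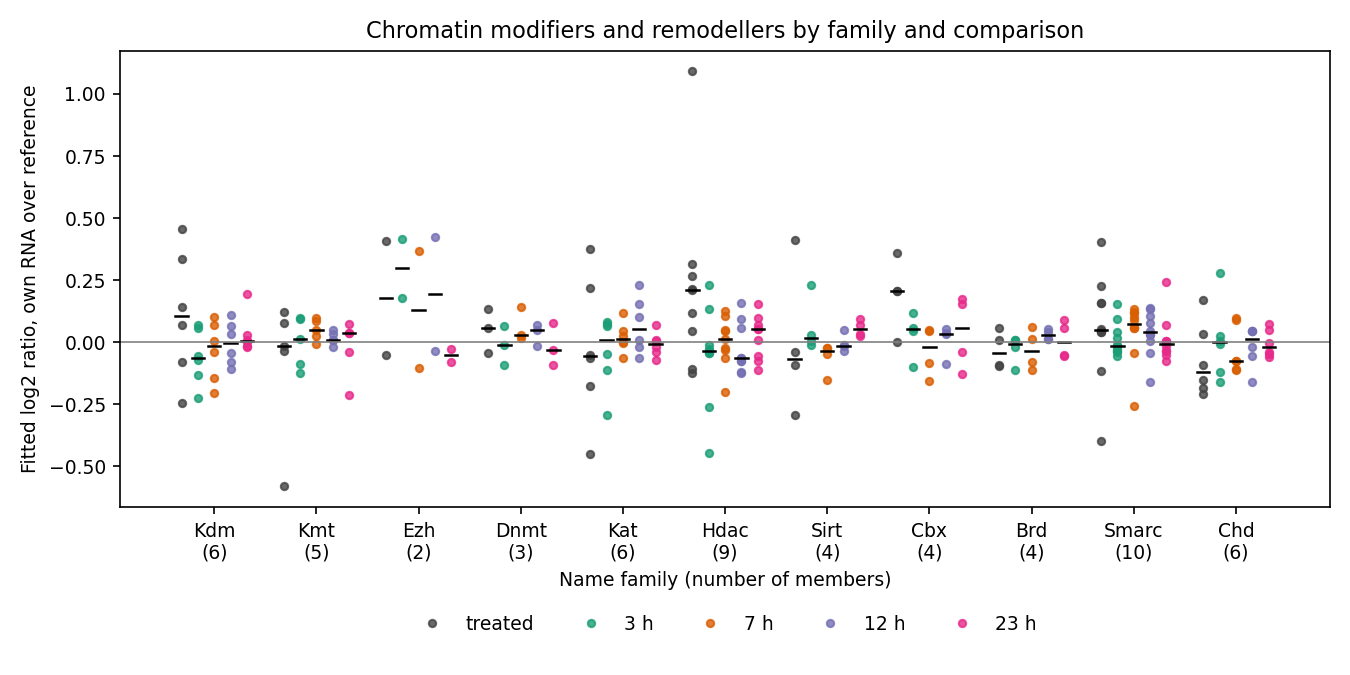
Points are the fitted log2 ratios of the members, grouped by name family, for the treated cells and for 3, 7, 12 and 23 h, and black lines are medians over the members of a family. The treated values spread from -0.58 (Kmt2a) to 1.09 (Hdac4), and the values at the 4 times from -0.45 to 0.42. The Ezh family has the highest medians at 3 h, 7 h and 12 h, 0.30, 0.13 and 0.19, set by Ezh2.

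Differences among the 4 times were tested with 1 moderated F test per feature. Neither a member nor any other feature passed the adjusted threshold (0% of 16024). At an unadjusted p under 0.05 there were 4 members, Kat8, Ezh1, Chd8 and Hdac11, against 6.55% of all features. Ezh1, Chd8 and Hdac11 each had their highest fitted value at 3 h, with adjusted p = 0.758 for each. Leaving out 1 array at a time, F ran from 2.05 to 6.28 for Ezh1, from 2.3 to 7.21 for Chd8 and from 2.24 to 5.89 for Hdac11. With the Cy3 signs turned it was 1.15, 1.63 and 1.53. At 3 h, 8 members were above 0 on every array, against 11% of all features, and 4 were below 0 on every array, against 10.4%. The 8 were Chd8, Ezh1, Ezh2, Hdac11, Kat2b, Kmt5a, Sirt4 and Smarca5, and the 4 were Brd8, Chd4, Hdac4 and Kat8. At 7 h, 3 members were above 0 on every array (5.75% of all features) and 3 below (6.76%): Hdac3, Kat6a and Smarcal1 above, and Cbx7, Chd3 and Ezh1 below. At 12 h, Ezh2, Kat2b, Kat8 and Smarcd2 were above 0 on every array (4 members, 7.49% of all features), and Hdac3, Hdac5, Kat5 and Smarce1 below (4 members, 6.97%). At 23 h the 3 arrays put 4 members above 0 (9.93% of all features) and 6 below (9.36%). In the treated cells 2 members with 4 values, Hdac1 and Smarcc2, were above 0 on every array (6.18% of all features). No member was on the same side on every array at all 4 times.

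Probes of the same gene often differed. Of the 20 members with more than 1 probe, the probe means fell on both sides of 0 for 10 in the treated cells, 15 at 3 h, 11 at 7 h, 12 at 12 h and 18 at 23 h. The median distance between a member's highest and lowest probe was 0.26 in the treated cells and 0.11 to 0.18 at the 4 times. That distance, over the 20 members, is larger than the median size of the log2 ratios of all 59 members in each comparison. A range over probes and a ratio averaged over probes are unlike measures, so this does not size the disagreement.

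Partner proteins that the name rule does not reach were read from 9 lists, of which 137 of 205 genes were tested. They hold Polycomb, NuRD, COMPASS, SWI/SNF and DNA methylation partners, other methyltransferases, demethylases and acetylation factors, and histone chaperones. None of the 137 was called in any comparison. At an unadjusted p under 0.05 there were 6 above and 4 below 0 in the treated cells (7.3%), 7 and 5 at 3 h (8.76%), 4 and 5 at 7 h (6.57%), 11 and 3 at 12 h (10.2%) and 1 and 5 at 23 h (4.38%). The same shares of all features were those given above, 6.21%, 10.8%, 7.04%, 6.25% and 3.35%. Setd1a, the catalytic subunit of a COMPASS complex, had opposite values at 3 h and 12 h, -0.25 and 0.25 (SE 0.0609 and n = 4 arrays each, limma adjusted p = 0.425 and 0.492). In the treated cells, Phf19, a Polycomb complex 2 partner, was fitted at 1.39 (SE 0.27, n = 4 arrays). Mbd4, a methyl-CpG binding DNA glycosylase, was fitted there at -1.33 (SE 0.277, n = 4 arrays). The demethylase-related Jmjd6 at -0.51 and the histone chaperone Dek at 0.46 complete those at an unadjusted p under 0.01 in the treated cells, all with adjusted p = 0.792. At 3 h the SAGA subunit Sgf29 stood at 0.16, the SWI/SNF subunit Arid2 at 0.19 and the chaperone Nap1l4 at -0.21. At 7 h Taf5l stood at -0.51 and the INO80 helicase Ruvbl1 at -0.57.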

How the data were processed

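Two-colour arrays measured RNA of FDCPmix cells on 19 arrays in 5 groups, per the labels. Labelled cDNA of total RNA was hybridised with reference cDNA in the other dye, per the labels' protocols. The authors deposited 1 log ratio per probe, taken here as log2. How they normalized it is not given in the sources used here. Spot intensities were not used, so the number of arrays limits the precision. The 1 value repeated at the extreme of each array was set to missing, each array was centred on its median, and the probes of a gene with a single symbol in the platform annotation were averaged. This gave 16148 features from 20205 probes (13891 with 1 symbol, 5 with several, 6309 with none).

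Features with values on at least 3 of 4 arrays (2 of 3 at 23 h) were fitted with limma 3.58.1 in R 4.3.3, with a dye term. The treated arrays were fitted on their own and the 15 timed arrays together. Each mean was tested against 0, p-values were adjusted by Benjamini-Hochberg over all features, and a feature was called at an adjusted p under 0.05. The fits were tested on simulated data. Counts at an unadjusted p under 0.05 are descriptions.

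The members and gene lists were chosen with earlier results of these data known. Named members are those with an unadjusted p under 0.05, the 2 with the smallest p of each family, and 1 widely studied gene per family where measured (7 of 11). Hdac9, Kat7 and the members named for motifs or for arrays on 1 side of 0 were added after their values were seen. Partner genes are named at an unadjusted p under 0.01. Alternatives covered the pooling of spread, array weights, signs, dye term, centring, scaling, extremes, filter, probes, replicate block and left-out arrays. Promoter windows came from RefSeq tables.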

Additional observations from a re-analysis of the deposited data

Results flagged for a closer look

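In 103 groups of 4 arrays, 1 array stood far from the others 6 times, and chance gives about 1 in 20 such groups. Ezh2 on 7 h replicate 4 was at -0.71, against 0.64 to 0.81 on the other arrays. The extreme value of that array runs against its dye label. Kat2b on treated replicate 4 was at 1.31, against -0.022 to 0.17 on the others, and Ezh1 on the same array was at -0.14, against -0.032 to -0.011. Kmt2a on 12 h replicate 1 was at 0.66, against -0.20 to -0.11. Smarca4 on 7 h replicate 1 was at 0.22, against -0.011 to 0.009, and Brd8 on 12 h replicate 3 was at -0.085, against 0.089 to 0.11. The groups of 3 arrays at 23 h were not examined in this way.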

How the results depend on the processing

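The count of called members stayed at 0 under every alternative except 1 fit over all 19 arrays, which called 2 in the treated cells. That fit gave unadjusted counts of 15 in the treated cells, 3 at 3 h, 1 at 12 h and 1 among the times. Unadjusted counts moved by over 1.5 times under many settings, and the cause was not tested: array weights gave 4 at 7 h and 5 at 12 h; turned Cy3 signs gave 4 in the treated cells, 4 at 7 h, 8 at 12 h and 3 at 23 h; no dye term gave 4 in the treated cells and 1 at 12 h. No centring gave 1 at 12 h and 2 at 23 h, and 1 probe per gene gave 4 in the treated cells, 1 at 7 h and 2 among the times. Cy5 arrays alone gave 4 in the treated cells, 11 at 3 h, 8 at 7 h and 6 at 12 h. At 23 h they leave 1 array (n = 1), so no count is given. Cy3 arrays alone gave 4 at 7 h and 1 at 23 h. Without both doubtful arrays there were 6 at 7 h and 2 at 23 h. Of the settings chosen after seeing the data, a fit per time gave 1 at 23 h and turning 7 h replicate 4 gave 7 at 7 h. The share of all features under each setting is not given beside these unadjusted counts. Without those shares, the counts cannot show whether the members differ from the array as a whole.

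Leaving out 1 array at a time gave unadjusted counts of 2 to 5 in the treated cells, 4 to 6 at 3 h, 2 to 5 at 7 h, 1 to 3 at 12 h, 1 to 2 at 23 h and 1 to 4 among the times, again without the shares of all features. The median log2 ratio of the members then ran from -0.016 to 0.060 in the treated cells (below 0 without replicate 3), from -0.019 to 0.012 at 3 h, from 0.0067 to 0.030 at 7 h, from 0.0048 to 0.033 at 12 h and from -0.0105 to 0.025 at 23 h. At 23 h it was 0.079 with no centring and 0.019 on Cy5 arrays alone.

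Turned Cy3 signs reversed Hdac4 in the treated cells (-0.44), Hdac11 (-0.064), Kat8 (0.024) and Sirt4 (-0.086) at 3 h and Kat8 at 12 h (-0.18). Cy3 arrays alone reversed Ezh2 at 7 h (-0.035) and Chd4 at 12 h (0.018).

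Same-numbered arrays of different times correlated between -0.11 and 0.20 (mean 0.031) after removal of group means. The mean was 0.048 for arrays of the same dye with another number and -0.039 for arrays of unlike dye. The dye was not removed, so these values cannot settle whether the replicate numbers pair the arrays. A replicate block in place of the dye term gave 1 member at an unadjusted p under 0.05 at 12 h and 1 among the times, and called 0. It could not be fitted to the treated arrays alone, which then have no residual degrees of freedom.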
